A study of Drosophila melanogaster with 2 samples.

Results

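The 10 genes described here encode the histone deubiquitinase and the structural core of the *Drosophila* SAGA complex, and they were taken by name from the 13968 protein-coding genes on the chromosome arms. The deubiquitinase group has 4 genes, *not* (non-stop), *Sgf11*, *e(y)2* and *Atxn7*. The core group has 6, *wda*, *Spt3*, *Spt7*, *Spt20*, *Ada1-1* and *Nipped-A*. The question was where Ada2b, a subunit of the same complex, was found at the genes of its partner subunits. Embryos aged 0 to 18 h of the strain Ada2b-GFP, a transgenic line that expresses Ada2b fused to eGFP, were used whole, and chromatin bound by the fusion was pulled down with anti-GFP and sequenced. The single group had 2 biological replicates, both with the fusion. Embryos without it were not analysed here, nor was the control used for peak calling, and whole embryos mix all cell types and ages. The labels name an insertion targeting Ada2b and do not say what drives the fusion or how much untagged Ada2b remains. Chromatin was sheared to 200 to 800 bp.

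SAGA is a coactivator that is brought to promoters by transcription activators. It carries an acetyltransferase module, built on Gcn5 and Ada2b, and a deubiquitinase module that removes ubiquitin from histone H2B. In the deubiquitinase module the protease Non-stop is active only when held by Sgf11 and E(y)2, and Atxn7, whose human counterpart is mutated in a spinocerebellar ataxia, ties the module to the complex. The core holds the parts together: Spt7, Ada1 and Spt20 are scaffold subunits, Spt3 binds the TATA-binding protein in yeast, Wda is a WD-repeat relative of the TFIID subunit Taf5, and Nipped-A is the very large activator-binding protein known as Tra1 in yeast and TRRAP in mammals.

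Peaks were read from 8 deposited lists. The conservative list holds 4796 peaks on the arms that passed a threshold on the irreproducible discovery rate (IDR), a measure of how well peak ranks repeat. Each replicate has its own thresholded list, with 3761 peaks for replicate 1 and 3019 for replicate 2. Ranked lists hold weaker candidates too, 91420 for both replicates together, 66290 for replicate 1 and 52829 for replicate 2. The score of a peak is its IDR rescaled to at most 1000, and 830 was the lowest score in the thresholded lists. Signal is the signal value that the authors' peak caller wrote. It is not comparable between lists, so ranks and percentiles within a list are given, where the percentile is the share of the list's peaks with a lower signal. A promoter peak has its summit within 500 bp of an annotated transcription start site (TSS), and a gene-body peak has it elsewhere inside the gene. Distances are negative upstream of the TSS. Read depth is not known from these lists.

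The conservative list held a peak at 5 of the 10 genes. All 4 deubiquitinase genes had one, at the promoter of *Sgf11*, *e(y)2* and *Atxn7* and inside *not*, and of the 6 core genes *wda* had one, at its promoter. A promoter peak was thus found at 3 of 4 deubiquitinase genes and 1 of 6 core genes, beside 17.5% of all protein-coding genes. With the gene body included, the counts were 4 of 4 deubiquitinase and 1 of 6 core genes, beside 23.2% of all genes. That background was larger for longer genes. It was 10.5% of genes under 1.5 kb, 21.3% of those from 1.5 to 5 kb, 31.9% of those from 5 to 10 kb and 52.5% of those over 10 kb. *Nipped-A*, a core gene of 73.1 kb without a peak, falls in the last class. The 4 deubiquitinase genes are 503 to 4666 bp long, and *not*, the one reached through its body, is 3825 bp long. The groups are small and no test of their difference was made.

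The bases at the summits of these peaks are printed because the 5 places differ in base composition and in the short motifs they hold. *Spt7* and *Ada1-1* are added as core genes without a peak, *Spt7* at a candidate summit under the threshold and *Ada1-1* at its start. Each runs 5′ to 3′ on the strand of the gene, in dm6 coordinates, and was read from the RefSeq copy of that assembly. Windows were cut back to at most 20 bases past any start. Capitals mark matches, on either strand, to the DNA replication-related element (DRE, TATCGATA), its core CGATA, the E-box CAGCTG, the GAGA element GAGAG, Ohler 1 (GGTCACACT), Ohler 6 (GTATTT) or the initiator core TCAGT. The DRE contains its own core.
*not*, chr3L:18621084-18621284, minus strand, intron: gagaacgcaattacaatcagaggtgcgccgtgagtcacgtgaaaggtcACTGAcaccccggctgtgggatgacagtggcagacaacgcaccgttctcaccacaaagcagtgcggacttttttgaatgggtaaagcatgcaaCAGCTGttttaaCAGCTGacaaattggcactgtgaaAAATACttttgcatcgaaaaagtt
*Sgf11*, chr3L:18681817-18682007, minus strand, promoter: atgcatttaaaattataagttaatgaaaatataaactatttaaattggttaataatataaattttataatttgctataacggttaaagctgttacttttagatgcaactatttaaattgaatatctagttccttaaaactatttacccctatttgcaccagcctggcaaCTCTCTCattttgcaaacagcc
*e(y)2*, chrX:11576686-11576886, minus strand, promoter: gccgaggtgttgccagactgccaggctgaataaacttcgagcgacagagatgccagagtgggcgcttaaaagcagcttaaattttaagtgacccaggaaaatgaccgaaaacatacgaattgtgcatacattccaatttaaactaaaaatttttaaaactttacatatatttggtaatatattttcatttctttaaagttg
*Atxn7*, chr2L:2375718-2375860, plus strand, promoter: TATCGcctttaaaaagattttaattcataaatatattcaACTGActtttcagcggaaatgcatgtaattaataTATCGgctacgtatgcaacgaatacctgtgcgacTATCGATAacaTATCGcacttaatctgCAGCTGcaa
*wda*, chr3R:23258101-23258301, minus strand, promoter: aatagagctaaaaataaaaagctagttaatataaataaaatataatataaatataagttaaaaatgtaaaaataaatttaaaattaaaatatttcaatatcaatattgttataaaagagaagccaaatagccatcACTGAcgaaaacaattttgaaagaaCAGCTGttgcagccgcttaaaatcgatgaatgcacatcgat
*Spt7*, chrX:17850323-17850479, plus strand, promoter, no peak past the threshold: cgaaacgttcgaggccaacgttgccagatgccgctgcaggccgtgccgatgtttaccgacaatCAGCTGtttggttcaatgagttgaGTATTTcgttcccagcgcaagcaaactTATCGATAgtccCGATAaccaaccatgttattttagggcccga
*Ada1-1*, chr2L:11996724-11996828, plus strand, start of the gene, no candidate: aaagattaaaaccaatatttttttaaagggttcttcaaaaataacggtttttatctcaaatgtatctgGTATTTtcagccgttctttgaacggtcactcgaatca

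*not* (FBgn0013717, 3L 18618305 to 18622129, minus strand) encodes the ubiquitin protease itself. Its peak, at 18621029 to 18621338, had its summit 945 bp downstream of the only annotated TSS, in an intron. The signal was 72.6, rank 2983 of 4796 in the conservative list and percentile 37.8. Replicate 2 alone called it, with a signal of 45.0 and percentile 39.1 of its thresholded list. In replicate 1 it was a candidate only, with a signal of 27.4 and a score of 715, and its summit lay at 946 bp, against 917 bp in replicate 2. The place was thus nearly the same in both replicates, while the threshold was passed in 1. The −log10 IDR was 2.63 in the ranked list of both replicates. Among the ranked lists the percentile was 93.6 ± 3.96 (SD, n = 2). No candidate summit in the ranked list of both replicates lay within 500 bp of the *not* start, whereas 70.7% of all genes had one there. The start of *bora*, the divergent neighbour, lies 563 bp from that of *not*.

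*Sgf11* (FBgn0036804, 3L 18681037 to 18681836, minus strand) encodes the adaptor that joins Non-stop and E(y)2 and binds the nucleosome in the yeast complex. Its peak at 18681752 to 18682061 was the weakest of the 5, with a signal of 46.8, rank 4487 of 4796 and percentile 6.44. The summit lay at -71 bp. Neither replicate alone called it. The candidate had a signal of 28.2 and a score of 537 in replicate 1 and a signal of 21.4 and a score of 717 in replicate 2. The summits differed, at -1 bp in replicate 1 and at -165 bp in replicate 2, so that the 2 replicates place it less exactly than the other promoter peaks. Of the 2444 genes with a conservative promoter peak, 15.4% had one in neither replicate's thresholded list, 23.2% had one in a single replicate and 61.3% in both. A second candidate, 474 bp downstream of the start in coding sequence, had a signal of 33.5 and a score of 231.

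*e(y)2* (FBgn0000618, X 11576118 to 11576620, minus strand) encodes a small subunit shared with TREX-2, a complex that links transcription to mRNA export. It was the one deubiquitinase gene with a promoter peak in the thresholded lists of both replicates. The peak at 11576631 to 11576940 had a signal of 111, rank 1740 of 4796 and percentile 63.7. The signal was 70.1 in replicate 1 (percentile 58.5 of its thresholded list) and 42.4 in replicate 2 (percentile 34.2). The summit lay at -166 bp in replicate 1 and at -182 bp in replicate 2, and at -166 bp in the conservative list. The gene stood lower in replicate 2 than in replicate 1 by this measure, although both passed the threshold at a score of 1000.

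*Atxn7* (FBgn0031420, 2L 2375841 to 2380506, plus strand) has 3 annotated starts, and its peak at 2375663 to 2375972 had the summit at -23 bp from the first. The signal was 74.3, rank 2905 of 4796 and percentile 39.4. Replicate 1 called it, with a signal of 42.0, a score of 898 and percentile 18.8. In replicate 2 it was a candidate with a signal of 30.6 and a score of 591. The summits lay at -26 bp in replicate 1 and at -12 bp in replicate 2, the closest to a start among the 4 promoter peaks apart from *Sgf11* in replicate 1. A second candidate, 67 bp downstream of the third start, had a signal of 40.2 and a score of 571 and stayed under the threshold. A far stronger peak, with a signal of 346 and rank 246, lay 502 bp past the 3′ end of *Atxn7*. Its summit was at -89 bp from the start of *Eogt*, the next gene, so it falls outside the rule for *Atxn7* and is not counted for it. It had a signal of 206 in replicate 1 (percentile 93.7) and of 144 in replicate 2 (percentile 90.8).

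*wda* (FBgn0039067, 3R 23255070 to 23258087, minus strand) had the strongest peak of the 10 genes. At 23258046 to 23258355 it had a signal of 176, rank 847 of 4796 and percentile 82.3. The signal was 89.3 in replicate 1 (percentile 71.7 of its thresholded list) and 88.1 in replicate 2 (percentile 77.6), and the summits nearly coincided, at -151 bp in replicate 1 and at -150 bp in replicate 2. Among the ranked lists the percentile was 96.8 ± 1.06 for *e(y)2*, 94.5 ± 0.778 for *Atxn7* and 90.6 ± 0.990 for *Sgf11*, against 98.5 ± 0.283 for *wda* (SD, n = 2 each). In each replicate the deubiquitinase genes thus ranked below *wda*. The peak was absent from the other thresholded list of the series and from the ranked list behind it. Only 8 of the 4797 conservative peaks lack an entry in that ranked list, and *wda* was one of them. Within the core group the count with a promoter peak is 0 of 6 in that other list, beside 17.9% of all genes.

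**Figure D1:**
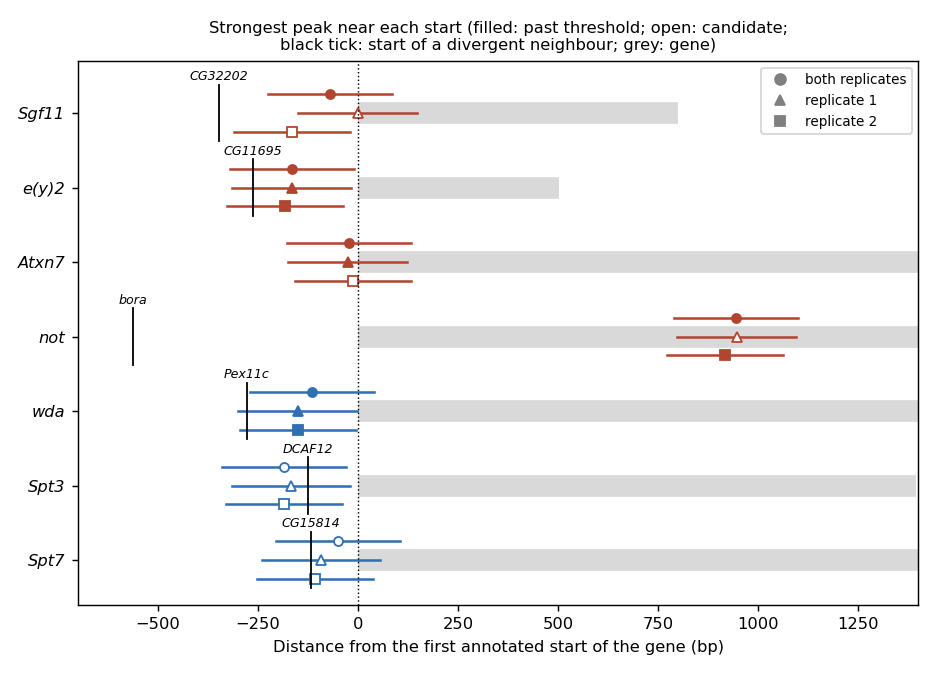
Place of the strongest peak or candidate of 7 genes around their first annotated start, with distance in bp on the x axis; grey bars are genes and black ticks the starts of divergent neighbours. Horizontal lines span the peak and symbols mark the summit in the list of both replicates (circles), replicate 1 (triangles) and replicate 2 (squares), filled where the score reached 830; red genes belong to the deubiquitinase module and blue to the core. Summits of *e(y)2*, *Sgf11* and *wda* sit between the start of the gene and that of a divergent neighbour, and that of *not* sits 945 bp inside the gene.

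*Spt3* and *Spt7* came nearest to the threshold among the core genes without a peak. *Spt3* (FBgn0037981, 3R 12017156 to 12018550) had a candidate at -185 bp with a signal of 36.6, a score of 462 and a −log10 IDR of 1.11. In single replicates the signal was 18.1 with a score of 106 in replicate 1, and 19.0 with a score of 182 in replicate 2. *Spt7* (FBgn0030874, X 17850460 to 17851889) had one at -49 bp with a signal of 34.8, a score of 499 and a −log10 IDR of 1.2. Its signal was 23.9 with a score of 205 in replicate 1, and 14.7 with a score of 118 in replicate 2. Both candidates were found in both replicates, and neither passed the threshold in any list. Their percentiles among the ranked lists were 81.5 ± 8.13 for *Spt3* and 81.9 ± 8.20 for *Spt7* (SD, n = 2 each). Set against the strongest promoter candidate of every protein-coding gene, *Sgf11*, the weakest gene past the threshold, was above 80.3% of genes, against 75.3% for *Spt3* and 74.0% for *Spt7*. In the ranked list of both replicates *Sgf11* was at rank 5376 with a score of 948, against rank 8128 for *Spt3* and rank 9072 for *Spt7*.

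*Spt20* (FBgn0036374, 3L 13502707 to 13511541) had only a weak candidate at its start, 137 bp downstream, with a signal of 16.0, a score of 23 and no counterpart in the ranked list of either replicate. That signal is above 42.0% of genes, and the median gene had 19.6. In the ranked list of both replicates its strongest candidate lay 1193 bp into the gene, in coding sequence, with a signal of 23.9 and a score of 181. The strongest was elsewhere in single replicates, at 4775 bp with a signal of 15.6 and a score of 105 in replicate 1, and at 6977 bp with a signal of 15.1 and a score of 54 in replicate 2. The 9 candidates inside its 8.84 kb ran at 1.02 per kb.

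*Nipped-A* (FBgn0053554, 2R 5177965 to 5251022) is the longest of the genes, at 73.1 kb, and had no candidate at its start in any of the ranked lists. Inside the gene the ranked list of both replicates held 3 candidates, all in introns, which is 0.0411 per kb. The 313 protein-coding genes over 50 kb had a median of 0.682 per kb, and 14 of them (4.47%) were at or under the value of *Nipped-A*. The strongest of the 3 had a signal of 23.0 and a score of 146. Of the 31-base words of the gene, 77.5% occur once in the genome, and within 500 bp of the start 100% do. The part that repeated sequence plays in the low number of candidates was not tested.

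*Ada1-1* (FBgn0051865, 2L 11996809 to 11997965) had no candidate at all, in its body or within 500 bp of its starts, in any of the ranked lists. It lies 3907 bp from *Ada1-2*, a second Ada1 gene on the same strand. The gene bodies are 99.4% identical, with 3 mismatches and 4 gapped positions over 1157 aligned positions, and the 105 bases printed above at the start of *Ada1-1* occur 2 times in the genome. Within 500 bp of the first start, 9.58% of 31-base words occur once. For the other 9 genes the value was 100%. *Ada1-2*, with the same 9.58%, had no promoter candidate either. Across the genome, 8 of 256 genes with at most 10% unique words there (3.12%) had a promoter candidate, against 72.6% of the 13356 genes over 90%. How the authors treated reads that match both copies is not stated in their notes, and the part of the copies in the missing candidates was not tested.

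**Figure D2:**
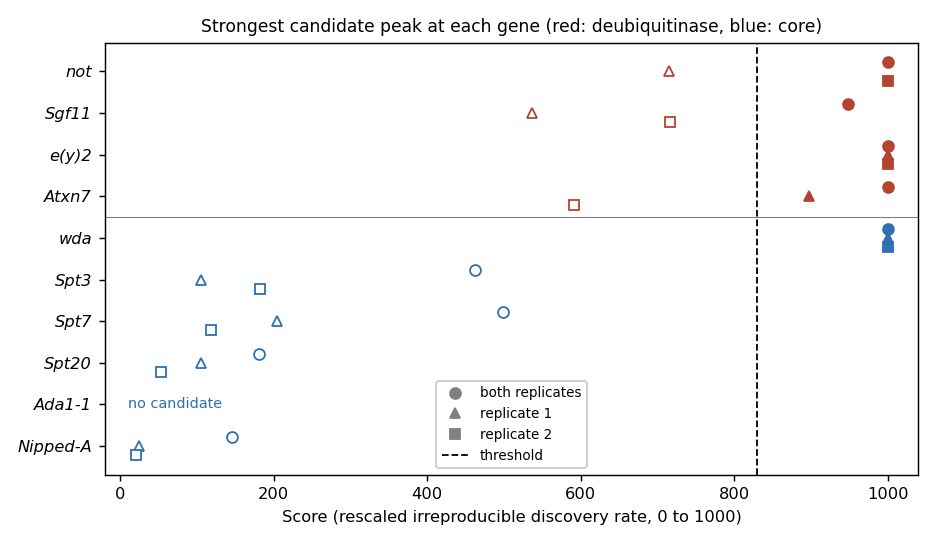
Score of the strongest candidate at or inside each gene, on an x axis from 0 to 1000, in the ranked lists of both replicates (circles), replicate 1 (triangles) and replicate 2 (squares); the dashed line is the lowest score in the thresholded lists, 830, and filled symbols lie past it. The 4 deubiquitinase genes (red) have scores of 537 or more in every list, whereas among core genes (blue) *wda* alone exceeds 499, and *Ada1-1* has no candidate.

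**Figure D3:**
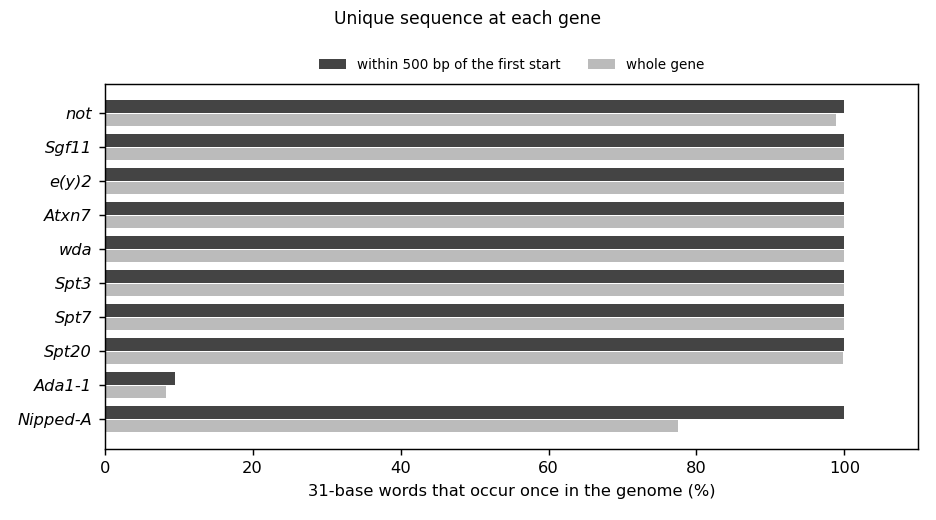
Share of 31-base words that occur once in the genome, in percent, within 500 bp of the first start (dark bars) and over the whole gene (light bars). *Ada1-1* stands at 9.58% around its start and 8.25% over the gene, *Nipped-A* at 77.5% over the gene, and the other 8 genes at 98.8% or more in both.

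Single replicates gave lower counts. In replicate 1 a promoter peak was called at 2 of 4 deubiquitinase genes, *e(y)2* and *Atxn7*, and at 1 of 6 core genes, *wda*, beside 14.2% of all genes. In replicate 2 the counts were 1 of 4, *e(y)2*, and 1 of 6, *wda*, beside 13.2% of all genes. With gene bodies included, replicate 1 gave 2 of 4 deubiquitinase and 1 of 6 core genes, beside 19.4% of all genes. Replicate 2 gave 2 of 4, *not* and *e(y)2*, and 1 of 6, beside 17.6%. The lead of the deubiquitinase group in the conservative list thus rests partly on *Sgf11*, called in neither replicate alone, and on *not* and *Atxn7*, called in 1 each. In replicate 2 each group had 1 gene with a promoter peak.

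The place of the promoter summits was shared with the neighbouring gene in 3 of 4 cases. *e(y)2* faces *CG11695*, with starts 263 bp apart, and the summit lay at -166 bp from *e(y)2* and closer, at -97 bp, to *CG11695*. *wda* faces *Pex11c*, a peroxisome biogenesis gene, with starts 278 bp apart, and the summit lay at -114 bp from *wda* and at -164 bp from *Pex11c*. *Sgf11* faces *CG32202*, with starts 348 bp apart, and the summit lay at -71 bp from *Sgf11* and at -277 bp from *CG32202*. Signal at these 3 places cannot be assigned to one gene of the pair, and counting each peak for the nearest start alone leaves *Sgf11*, *Atxn7* and *wda*. Only the summit at *Atxn7* had no other protein-coding start within 500 bp. Among all 2444 genes with a promoter peak, 55.3% shared one with another gene.

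Divergent starts were common among the 10 genes whether or not a peak was present. A start on the opposite strand lay within 600 bp upstream at 6 of them, *not*, *Sgf11*, *e(y)2*, *wda*, *Spt3* and *Spt7*, and 3 of these 6 had a promoter peak. Of the 4 others, 1 had one. Across the genome a promoter peak was found at 32.9% of the 4211 genes with such a partner and at 10.9% of the 9757 without. *Spt3* and *Spt7* have the closest partners, with starts 125 bp from *DCAF12* and 118 bp from *CG15814*. The *Spt3* candidate summit, at -185 bp, lay past that *DCAF12* start, inside *DCAF12*, and at -54 bp from another, farther *DCAF12* start. The *Spt7* candidate summit lay between the starts of the pair, at -69 bp from that of *CG15814*. A close divergent start was therefore seen on both sides of the threshold. The summits at the 4 promoters with a peak, from -166 to -23 bp, compare with a median of -136 bp and quartiles of -219 and -73.0 bp for the strongest promoter peak of all 2444 genes.

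The printed sequences differed in GC content and shared some motifs. GC content in the 201 bases around the summit was 22.9% at *wda*, lower than in all but 0.938% of conservative peaks, and 26.9% at *Sgf11*, where 6.90% were lower. It was 35.8% at *e(y)2* and 36.3% at *Atxn7*, near the median of 34.8%, and 47.3% at the intronic peak of *not*, above 92.0% of peaks. *Atxn7* holds a DRE, the site of the housekeeping promoter factor Dref, beginning 7 bases downstream of the summit, at -16 from the first start. *Spt7* holds one as well, beginning at -23. A DRE was present in 9.36% of the windows from 250 bases before to 50 after the most upstream start of all genes, and among the 10 genes at these 2, one with a peak and one without. In the 201 bases around the summit the E-box was present at 3 of the 5 peaks, *not*, *Atxn7* and *wda*, beside 8.22% of all summit windows. *not* holds 2 copies, at 41 and 53 bases downstream of its intronic summit, *Atxn7* 1 at 34 bases downstream and *wda* 1 at 60 bases downstream. In promoter windows it was present at 6 of the 10 genes, *not*, *Atxn7*, *wda*, *Spt3*, *Spt7* and *Ada1-1*, beside 17.7% of all genes, so that genes with and without a promoter peak held it. The initiator core was found in the summit windows of the same 3 peaks, beside 35.7% of all, and in 5 of the 10 promoter windows, beside 51.6%. The DRE core was present in 6 of the 10 promoter windows, beside 47.4% of all genes. *Sgf11* holds overlapping GAGA elements at its start, an element found in 29.8% of promoter windows. The *e(y)2* window printed holds none of the 7 motifs, and neither does its promoter window. A match is a description of the letters and not evidence of a bound factor.

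In the acetyltransferase module, the conservative list marked 3 of 4 promoters, replicate 1 marked 4 of 4 and replicate 2 marked 2 of 4. The shares of all genes in these lists were 17.5%, 14.2% and 13.2%, in the same order. The gene that the conservative list leaves out is *Sgf29*, which has a promoter peak in replicate 1 and in the other thresholded list. The count in that other list is also 4 of 4, beside 17.9% of all genes. *Gcn5*, the acetyltransferase, had a signal of 265 and percentile 91.3, *Ada2b* had 161 and percentile 79.7, and *Ada3* had 74.0 and percentile 39.2. The *Ada2b* summit lay 361 bp downstream of its start. *Ada2b* is also the gene of the tagged protein, and any part of the insertion in its peak was not tested. Of the TAF and splicing subunits with *Ada1-2*, 1 of 7 had a peak, *Sf3b3*, at 65.3 and percentile 30.2. It was called in replicate 2 and not in replicate 1. Among these SAGA genes with a peak in the conservative list, the peak at *wda* stood between those at *Gcn5* and *Ada2b* in signal, and that at *Sgf11* was lowest.

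Of 6 genes listed for H2B ubiquitination, which sets the mark that the deubiquitinase removes, 2 had a promoter peak. They were *atms*, the Paf1 subunit, with a signal of 51.4 and percentile 11.9, and *Ctr9*, another subunit of the same elongation complex, with 60.2 and percentile 23.8. Replicate 1 had a promoter peak at 0 of the 6, beside 14.2% of all genes. Replicate 2 had one at 1 of the 6, *atms*, beside 13.2%, so that *Ctr9* was called in neither. *Bre1*, the ubiquitin ligase, had a peak inside the gene and none at its promoter. *Ubc6*, the ubiquitin-conjugating enzyme, had a candidate at -53 bp with a signal of 69.4 and a score of 1000 that the conservative list lacks. The ranked list has 108 such entries in all, and *Bre1* and *Ubc6* were picked out after their values were seen. None of 4 genes of TREX-2 with *e(y)2b*, the second E(y)2 gene, had a promoter peak. *e(y)2* itself, whose product is shared with TREX-2, had one and was counted with the deubiquitinase group only. Of the 14 genes of the Tip60 complex, which shares Nipped-A, 1 had one, *MrgBP*, with a signal of 72.9 and percentile 38.0. It was called in replicate 1 and not in replicate 2. *pont*, of the same 14 and picked out after its value was seen, had a candidate at -148 bp with a score of 1000 that the conservative list lacks. The shares in the conservative list stand beside the same 17.5% of all genes.

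**Figure D4:**
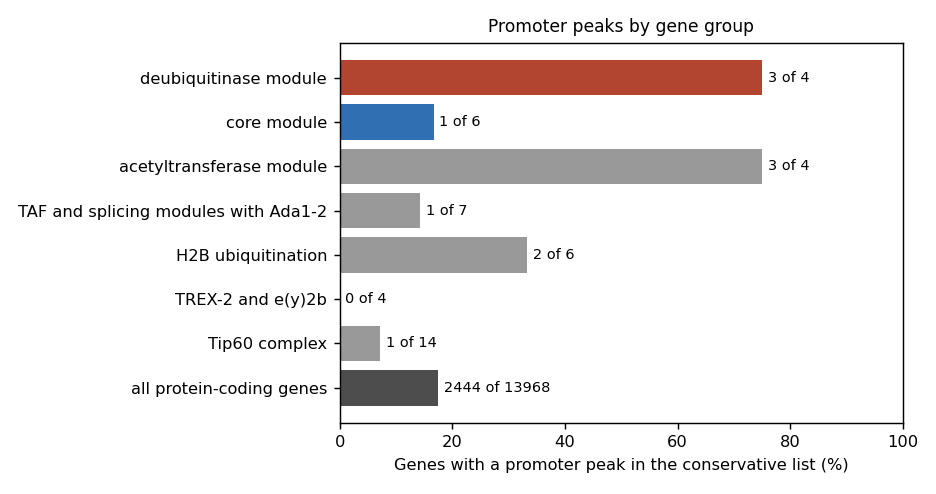
Share of genes whose promoter holds a conservative peak, in percent, for each gene group, with counts beside the bars. The deubiquitinase (3 of 4) and acetyltransferase (3 of 4) modules have the longest bars, and the core (1 of 6) lies near the 17.5% of all protein-coding genes. The acetyltransferase count includes *Ada2b*, the gene of the tagged protein.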

How the data were processed

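Peak lists of anti-GFP chromatin immunoprecipitation from 2 replicates were used as the authors deposited them. The text notes deposited with each sample name dm6 alignments as the input, with a file that also enters the fold change over control. Series lists draw on both replicates and the rest on a single one. Aligner and caller: not given in the sources used here. In the deposited lists the score is a rescaled IDR, and the signal, also a caller score, has no normalization between lists. The −log10 IDR of ranked lists and the summit offsets were used as deposited. In the series' ranked lists 16 columns with values of the separate inputs were not used.

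The ranked list that holds every conservative peak with its score was taken as the one behind it. Peaks on the 7 arms and protein-coding genes of Ensembl release 115 were used, and a peak counted for every gene whose start it was near. Intervals and floors were not given, because the lists hold no read counts. The members and lists, and the rule for the genes named (all members, neighbours that share their peaks, and genes of the lists with a promoter peak), were chosen with earlier results of these data known, so no test was made over the members. *bora*, *Eogt*, *DCAF12*, *CG15814*, *Bre1*, *Ubc6*, *Sgf29* and *pont* fall outside that rule and were named after their values were seen. *atms* stands for Paf1, its symbol in the annotation. Assignment of peaks and unique words were tested on simulated data. Alternatives were the other thresholded list, each replicate alone, TSS windows of 250 and 1000 bp, overlap of the whole peak, the peaks above the median signal, the most 5′ start and the nearest gene. Python 3.11.15, numpy 2.4.6, pandas 2.3.3, matplotlib 3.10.9 and, to align the Ada1 genes, Biopython 1.88 were used.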

Additional observations from a re-analysis of the deposited data

How the results depend on the processing

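The count of deubiquitinase genes with a promoter peak was 3. It was 1 without replicate 1 and 2 without replicate 2, 1 (*e(y)2*) with the peaks above the median signal, 2 with the nearest gene only and 4 with a TSS window of 1000 bp. With gene bodies it was 4, was 2 without replicate 1 and 2 without replicate 2, and was 1 with the peaks above the median signal. The core count was 1 in all settings but the other thresholded list, where it was 0 at promoters and 0 with gene bodies included. That list held a promoter peak at 17.9% of all genes. The share of all genes with a promoter peak was 17.5% and moved with the processing: 13.2% without replicate 1 and 14.2% without replicate 2, 13.7% with a window of 250 bp and 20.7% with 1000 bp, 18.8% with overlap of the whole peak, 10.6% with the peaks above the median signal, 15.2% with the most 5′ start and 13.1% with the nearest gene only. The causes of these moves were not tested. The signal percentile of *e(y)2* was 34.2 without replicate 1, against 63.7, and that of *Atxn7* was 18.8 without replicate 2, against 39.4. That of *wda* was 77.6 without replicate 1 and 71.7 without replicate 2, against 82.3. For *Sgf11* it was 7.52 in the other thresholded list, against 6.44. These percentiles are within lists of different length. No paired analysis was possible because there was 1 group. Depth is not known, so a gene without a peak is one where none was detected, and at *Ada1-1* only 9.58% of the sequence words around the start are unique.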

Other observations

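*pont*, a gene of the Tip60 complex picked out after its value was seen, had a candidate at -148 bp from its start with a signal of 344 and a score of 1000 in the ranked list of both replicates, an entry that the conservative list lacks.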
